A study of Drosophila melanogaster with 4 samples.

Results

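The genes described here are 10 receptors for peptide hormones and biogenic amines, taken by name from the 13955 genes counted in single nuclei of the Drosophila melanogaster abdomen. All 10 were found. They include Lgr1, Lgr3, Lgr4 and rk, which are leucine-rich repeat receptors related to the glycoprotein hormone and relaxin receptors. Octbeta1R, Octbeta2R and Oamb bind octopamine, and 5-HT2A binds serotonin. Lkr is the leucokinin receptor, and CapaR is the receptor of the Capa peptides. The 10 genes form a list of names, with no threshold on a measured value, but the list was chosen with earlier results of these data known.

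All of these proteins are G protein-coupled receptors: a hormone or amine outside the cell switches on a G protein inside it, which raises or lowers cyclic AMP or releases calcium. Octopamine acts in insects much as noradrenaline does in vertebrates and is known for its effects on muscle and on energy use. The bursicon receptor encoded by rk is known for hardening and darkening of the new cuticle, Lgr3 for sensing the relaxin-like peptide Dilp8 from growing tissue, and Lkr and CapaR for fluid secretion by the Malpighian tubules, the renal organ of the fly.

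The nuclei came from the abdominal cuticle of adult males, that is the body wall with the oenocytes, fat body and muscle attached to it after the gut and the male reproductive organs were taken out. There were 4 libraries, 2 of each genotype, and each was made from 40 pooled abdomens after 4 days at the temperature that inactivates Gal80ts. Control flies, oenots>EGFP, carried UAS-2xEGFP, and oenots>tsc1,tsc2 flies carried UAS-Tsc1 and UAS-Tsc2 instead. The labels list w1118 for both genotypes, with the UAS insertions over +. The aim was to ask what lowered TOR activity in oenocytes does to this tissue, since TSC1 and TSC2 form an inhibitor of TOR signaling. Both genotypes carried PromE-GAl4, which drives expression in oenocytes, with tub-Gal80ts, a repressor expressed in all cells, and both were kept on standard food. The paper states that this driver is active in male accessory glands too. Oenocytes are the hepatocyte-like cells of the fly that make the hydrocarbons of the cuticle.

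The deposited tables hold counts of unique molecular identifiers (UMIs) in 25141 nuclei, with 2267 to 8067 nuclei, 1449112 to 3972281 UMIs and a median of 372 to 468 UMIs per nucleus in a library. Levels are given as CPM, that is UMIs of the gene per 1000000 UMIs, of the group of nuclei named, with 95% Poisson or Wilson intervals that cover counting error only. Pairs of libraries shared 15 to 77 cell barcodes, and no pair of libraries agreed within sampling noise. For comparisons across both genotypes, nuclei of all libraries were clustered together without the 10 receptors, and 4 classes were named from marker genes: adipose, oenocyte, muscle and cuticle-gene nuclei. The 12 adipose markers summed to 57243 to 68827 CPM in the adipose class and to at most 8678 CPM in the other named classes, the 11 oenocyte markers to 22995 to 50530 CPM in the oenocyte class, and the 15 muscle markers to 65098 to 111456 CPM in the muscle class. The gal4 transcript of the driver was at 162 to 331 CPM in oenocyte nuclei and at most 41.3 CPM in the other named classes, and the rows of Tsc1 and its partner gene were not analysed here. The cuticle-gene class is poorly separated. Its 12 markers summed to 2664 to 6805 CPM there and to 3477 to 4263 CPM in oenocyte nuclei of oenots>tsc1,tsc2 flies, 6 or 7 of them were at 0 in the class in each library, and the 15 muscle markers summed to 6466 to 18230 CPM in it, above its own. It holds 886 nuclei of deposited cluster 3, which the study counts as muscle. Nothing in the labels says how the libraries of a genotype differ beyond being separate samples, so the p-values measure only the spread between these samples. The paper treated the control and oenots>tsc1,tsc2 libraries as separate data sets and corrected for batch effects. Genotype and data set therefore cannot be told apart in the genotype contrasts.

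The receptors split sharply by how often they were counted. Lgr4 had 371 to 1895 UMIs and Octbeta2R 204 to 520 UMIs in a library, and rk had 5 to 127. Each of the remaining 7 had at most 32 UMIs in any library. Only Lgr4 and Octbeta2R, 2 of the 10, passed the filter on low counts and entered the tests, so every statement on the other receptors is a description.

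**Figure D1:**
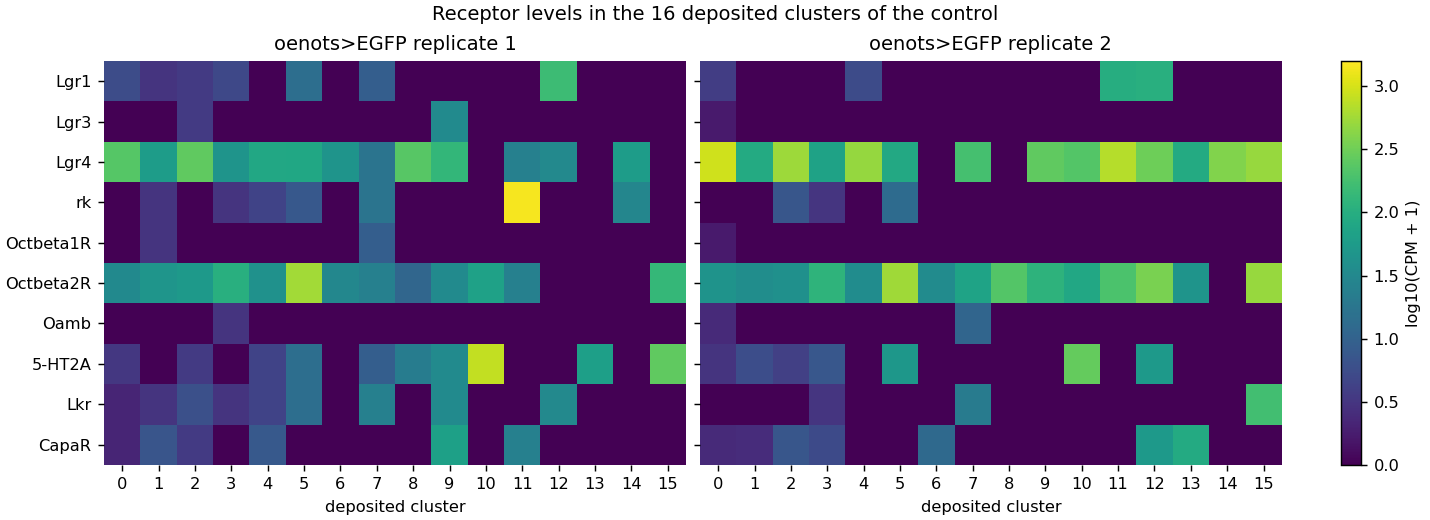
Level of each of the 10 receptors (rows, log10 of CPM + 1) in the 16 deposited clusters of control nuclei (columns), in 1 panel for each oenots>EGFP library. Lgr4 was at 223 and 921 CPM in adipose cluster 0 and 264 and 542 CPM in cluster 2, Octbeta2R at 566 and 553 CPM in muscle cluster 5, while rk in cluster 11 was counted in replicate 1 alone, at 1419 CPM.

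Octbeta2R encodes a beta-adrenergic-like octopamine receptor that couples to cyclic AMP. The gene lies on chromosome 3R from 12550625 to 12595725 on the minus strand (Release 6 coordinates, as for all genes below). In control flies it was above all a muscle transcript. In deposited cluster 5, a muscle cluster, its level was 566 CPM and 553 CPM (replicates 1 and 2), with a UMI in 19.5% and 22.7% of nuclei. After every nucleus was thinned to 250 UMIs these shares were 9.93% and 11.2%. Cluster 3 followed at 104 and 120 CPM. In oenocyte cluster 1 the gene was at 46.2 and 36.0 CPM, and in adipose cluster 0 at 32.2 and 42.8 CPM. These levels in oenocyte and adipose nuclei did not separate from each other in the control. Clusters 12 and 15 held 0 and 7, and 2 and 3 counts of Octbeta2R in replicates 1 and 2, too few to place them in this order.

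Over all 4 libraries, Octbeta2R in the muscle class was at 372, 382, 231 and 309 CPM, in the order oenots>EGFP replicates 1 and 2 and oenots>tsc1,tsc2 replicates 1 and 2, which is also used below. It was higher in muscle than in the mean of the other 3 classes by 2.27 on the log2 scale (SE 0.23, edgeR quasi-likelihood test, Benjamini-Hochberg adjusted p = 2.12e-06). For comparison, 29.1% of the 6818 genes tested were called in this muscle contrast, 16.2% as higher. Octbeta2R was lower in adipose nuclei, by a log2 change of -1.48 (SE 0.27, edgeR adjusted p = 0.000358, where 42.9% of genes were called, 19.8% as lower), and lower in cuticle-gene nuclei, by -0.94 (SE 0.28, edgeR adjusted p = 0.0220, where 26.8% were called, 13.3% as lower). The last call was lost in 5 of 15 other settings, among them leaving out either oenots>EGFP library (adjusted p up to 0.187). The cuticle-gene contrast is against a mean that includes muscle. In the control, cuticle-gene nuclei (66.5 to 79.1 CPM) were above oenocyte (32.8 to 42.6 CPM) and adipose nuclei (32.7 to 47.4 CPM). In oenots>tsc1,tsc2, cuticle-gene nuclei (64.5 to 82.5 CPM) were below oenocyte nuclei (222 to 424 CPM) and overlapped adipose nuclei (41.9 to 75.1 CPM). The oenocyte class did not differ from the mean of the other classes in a contrast that averages both genotypes (0.15, edgeR adjusted p = 0.685, where 40.1% of genes were called).

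The genotypes differed in oenocytes. Octbeta2R in oenocyte nuclei stood at 42.6 and 32.8 CPM in the control libraries and at 424 and 222 CPM in the oenots>tsc1,tsc2 libraries. The counts behind these levels were 29, 28, 295 and 84. A UMI of Octbeta2R was found in 27 of 1585, 25 of 1712, 223 of 1454 and 76 of 738 oenocyte nuclei, that is in 1.70%, 1.46%, 15.3% and 10.3%. Both oenots>tsc1,tsc2 libraries were above both controls, and the lower of them was 5.21 times the higher control. The mean rose from 37.7 ± 6.91 to 323 ± 143 CPM (SD, n = 2), a ratio of 8.56. After thinning to 250 UMIs per nucleus, the shares were 1.14%, 0.76%, 8.94% and 6.50%. In adipose nuclei of the same libraries, the share of nuclei with a UMI was 1.17% to 3.36%, at median depths of 347 to 442 UMIs. The share in control oenocytes was within this range and is not above such a background.

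The edgeR test within oenocyte nuclei gave a log2 change of 2.99 for Octbeta2R (SE 0.40, adjusted p = 0.0150). Of the 6495 genes tested there, 2.96% were called, 1.34% as higher and 1.62% as lower. Octbeta2R ranked 52 among all genes by the size of its increase and 39 by p. The call held in each of the 13 alternative settings and without each library in turn, with log2 changes of 2.63 to 4.08 and adjusted p-values of 1.88e-08 to 0.0434.

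**Figure D2:**
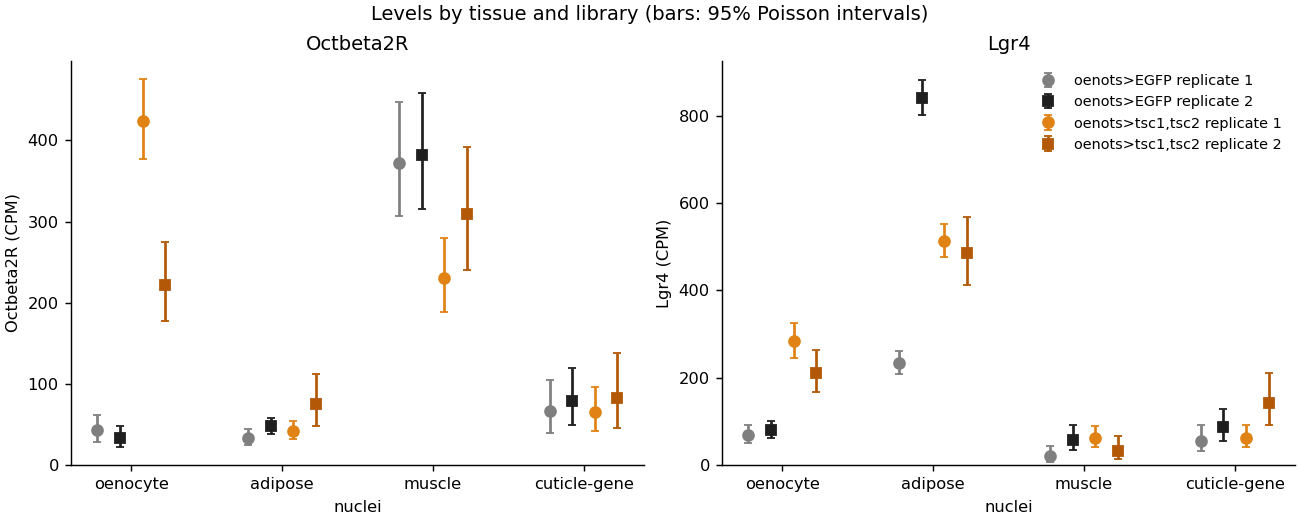
Level of Octbeta2R and Lgr4 (CPM, with 95% Poisson intervals) in each library, for the 4 classes of nuclei. Octbeta2R in oenocyte nuclei was at 42.6 and 32.8 CPM in oenots>EGFP and at 424 and 222 CPM in oenots>tsc1,tsc2, and Lgr4 in adipose nuclei ranged from 233 to 841 CPM, with both extremes in oenots>EGFP.

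No change of Octbeta2R between genotypes passed the test in the other classes. In muscle nuclei the oenots>tsc1,tsc2 libraries (231 and 309 CPM) lay below the controls (372 and 382 CPM), but the change did not pass the test (log2 -0.35, SE 0.44, edgeR adjusted p = 0.998, where 0.261% of 4213 genes were called). In adipose nuclei the levels were 32.7, 47.4, 41.9 and 75.1 CPM and the groups overlapped (0.42, edgeR adjusted p = 0.846). No gene of 7719 was called in adipose nuclei by edgeR, although 780 had an unadjusted p under 0.05 and DESeq2 called 72. In cuticle-gene nuclei the levels were 66.5, 79.1, 64.5 and 82.5 CPM (0.09, edgeR adjusted p = 0.998, where 0.0224% of 4459 genes were called). In oenots>tsc1,tsc2 flies, Octbeta2R thus stood at 424 and 222 CPM in oenocyte nuclei beside 231 and 309 CPM in muscle nuclei of the same libraries.

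The difference between tissues was tested directly. The change of Octbeta2R was larger in oenocyte than in muscle nuclei by 3.32 on the log2 scale (SE 0.61, edgeR adjusted p = 0.0499, where 0.147% of 6818 genes were called, 0.0733% as higher), which is just under the threshold. It was larger than in adipose nuclei by 2.52 (SE 0.62, edgeR adjusted p = 0.0952, where 0.587% were called) and larger than in cuticle-gene nuclei by 2.95 (SE 0.66, edgeR adjusted p = 0.132, where 0.0587% were called), which did not pass. With the library as a block, which is warranted because the classes of a library come from the same flies, all 3 differences passed, at edgeR adjusted p-values of 0.00165, 0.00839 and 0.0133. Without any 1 library, the difference from muscle had adjusted p-values of 0.0897 to 1.0, so it was lost each time.

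The oenocyte class of the joint clustering was made of 3 clusters whose make-up differed by genotype. Cluster 2 held mostly control nuclei (1297, 1389, 152 and 72), cluster 4 mostly oenots>tsc1,tsc2 nuclei (47, 51, 1108 and 586), and cluster 7 both (242, 271, 181 and 75). The rise of Octbeta2R was seen inside these clusters as well. In cluster 2 the share of nuclei with a UMI was 1.77%, 1.30%, 16.4% and 18.1%, and after thinning 1.31%, 0.79%, 7.24% and 8.33%. In cluster 4 the shares were 0%, 1.96%, 16% and 10.2%, and in cluster 7 they were 1.65%, 2.21%, 8.84% and 2.67%. Both oenots>tsc1,tsc2 libraries were above both controls in each of the 3 clusters, by little in cluster 7 for replicate 2. That share in cluster 7 rests on 75 nuclei, and the control shares in cluster 4 rest on 47 and 51 nuclei.

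**Figure D3:**
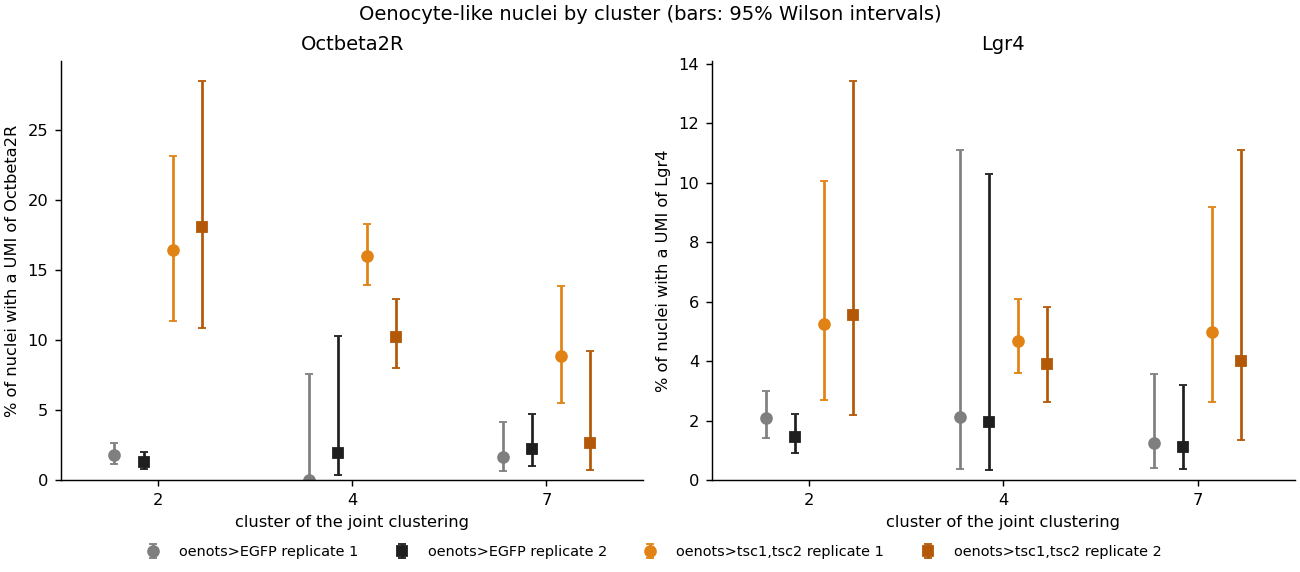
Percent of nuclei with at least 1 UMI of Octbeta2R or Lgr4 in the 3 oenocyte clusters (2, 4 and 7) of the joint clustering, in each library, with 95% Wilson intervals. In cluster 2 the share for Octbeta2R was 1.77% and 1.30% in oenots>EGFP and 16.4% and 18.1% in oenots>tsc1,tsc2.

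Markers of other cell types were summed in the same oenocyte nuclei. The 15 muscle markers were at 1258 to 1560 CPM in control and 864 to 1442 CPM in oenots>tsc1,tsc2 oenocytes, and the 12 adipose markers at 5635 to 8118 and 4168 to 4556 CPM, so neither exceeded its control range. The 12 cuticle markers were at 739 to 868 CPM in the control and 3477 to 4263 CPM in oenots>tsc1,tsc2 oenocytes, and the 12 male reproductive tract markers at 161 to 3161 and 1152 to 10400 CPM. The cuticle list thus separated the genotypes in oenocyte nuclei, and its part in the result was not tested. The male tract list did not, since oenots>tsc1,tsc2 replicate 2 (1152 CPM) was below oenots>EGFP replicate 1 (3161 CPM). The 7 tubule stellate markers were at 253 to 254 CPM in the control and 263 to 333 CPM in oenots>tsc1,tsc2, the 9 nervous system markers at 167 to 175 and 80.5 to 121 CPM, and the 6 tracheal markers at 610 to 1395 and 1214 to 1899 CPM, whose part was not tested either. In the cuticle-gene class itself, Octbeta2R was at 64.5 to 82.5 CPM in all 4 libraries. The 11 oenocyte markers were at 40817 to 50530 CPM in the control and 22995 to 26814 CPM in oenots>tsc1,tsc2, with sala at 0 in all 4 libraries.

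The other octopamine receptors were close to absent from the counts. Octbeta1R, another beta-adrenergic-like receptor on chromosome 3R (22497215 to 22520078, plus strand), had 2, 1, 6 and 4 UMIs in the 4 libraries. Oamb, the alpha-adrenergic-like receptor that couples to calcium (3R, 20689018 to 20714577, minus strand), had 1, 3, 3 and 6 UMIs. Neither had more than 2 UMIs in any deposited cluster of a library. A floor of 3 counts in a library corresponds to 0.755 to 2.07 CPM, so differences between genotypes or cell types were not detectable at this depth.

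Among the genes not in the list, those whose control levels over the 16 deposited clusters were most like Octbeta2R were CG13601 (Pearson r = 0.861), cher (r = 0.848), which encodes the actin cross-linker filamin, and tmod (r = 0.821), which encodes the actin filament cap tropomodulin, out of 6584 genes compared. Both cher and tmod were highest in muscle cluster 5. For Lgr4 they were CG13912 (r = 0.889), Gpdh1 (r = 0.871), a glycerol-3-phosphate dehydrogenase, and AdamTS-A (r = 0.855), a secreted metalloprotease, which were highest in adipose clusters 0 and 4. The clusters of a library share its depth, and these correlations are descriptions.

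Lgr4 belongs with Lgr3 to the relaxin receptor-like branch of the leucine-rich repeat receptors. The gene spans 13161714 to 13189164 on chromosome X, minus strand, and CG12096, CG32640 and CG32641 lie within its span on the opposite strand. In the control it was an adipose transcript, but its level differed widely between the libraries. In adipose cluster 0 its level was 223 CPM and 921 CPM (replicates 1 and 2), a ratio of 4.12, and 0.607% of 2802 genes compared were as far apart in that cluster. Cluster 2 had 264 and 542 CPM and cluster 4 had 81.0 and 494 CPM. Cluster 8, which the study counts as adipose, had 229 CPM over 280 nuclei of replicate 1 and no UMI over 11 nuclei of replicate 2. In the larger clusters of other tissues Lgr4 was at 58.2 and 89.1 CPM in oenocyte cluster 1, 44.0 and 69.5 CPM in cluster 3 and 79.0 and 84.2 CPM in muscle cluster 5, and the level of cluster 4 in replicate 1 was no higher than that of cluster 5. Among the small clusters, levels were spread widely on few counts, as in cluster 11 with 24.0 and 689 CPM from 1 and 7 counts and cluster 7 with 15.9 and 181 CPM from 2 and 18 counts. In each of clusters 0, 2 and 4, replicate 2 was above replicate 1.

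The number of Lgr4 UMIs per nucleus differed between the same libraries. Among adipose nuclei with a UMI of Lgr4, 59.2% (122 of 206) had exactly 1 UMI in oenots>EGFP replicate 1, but only 4.21% (22 of 522) in replicate 2. The shares in oenots>tsc1,tsc2 were 26.6% and 28.6%. Nuclei with 2 or more UMIs of Lgr4 made up 2.29%, 10.6%, 6.31% and 6.40% of adipose nuclei, so the control libraries differed in this measure too. Octbeta2R had no such gap, with 62.8% to 77.1% of its UMI-positive muscle nuclei at 1 UMI. A shortage of nuclei with a single UMI was not peculiar to Lgr4. Of the genes with at least 200 UMIs in a library, 40.9%, 33.4%, 28.1% and 71.1% had fewer than 10% of their UMI-positive nuclei at 1 UMI. The counts were deposited after a background correction that removes counts, and its part in this pattern was not tested.

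**Figure D4:**
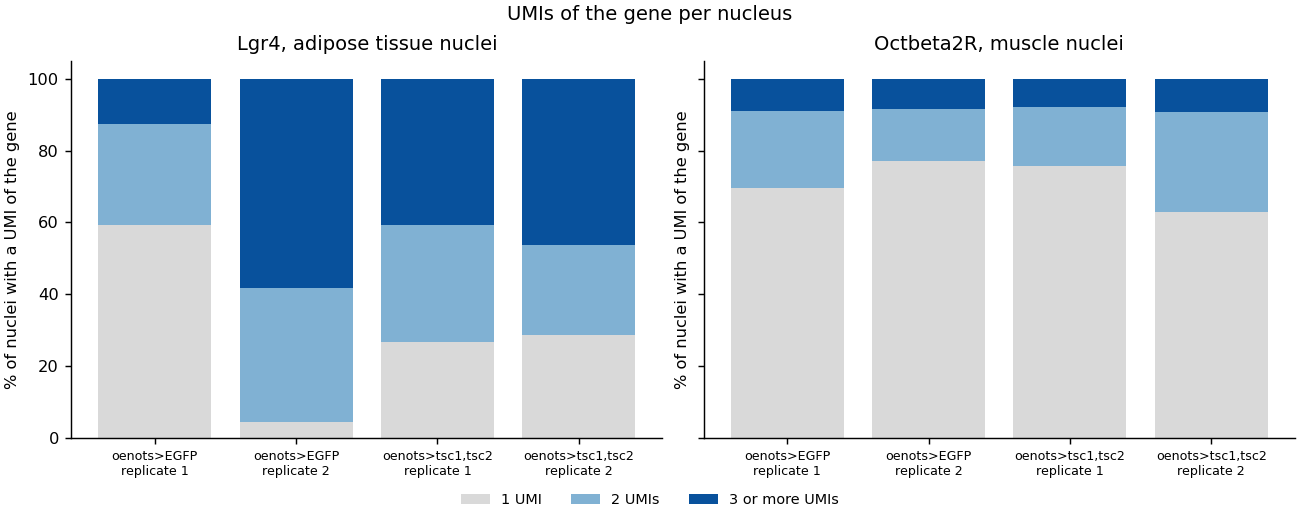
Share of UMI-positive nuclei that hold 1, 2, or 3 or more UMIs, for Lgr4 in adipose nuclei and Octbeta2R in muscle nuclei, in each library. Only 4.21% of Lgr4-positive adipose nuclei had exactly 1 UMI in oenots>EGFP replicate 2 against 59.2% in replicate 1, while the share for Octbeta2R in muscle was 62.8% to 77.1% in all 4 libraries.

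Over all 4 libraries, Lgr4 in the adipose class was at 233, 841, 513 and 485 CPM. The oenots>tsc1,tsc2 libraries lay between the controls. Lgr4 was higher in adipose nuclei than in the mean of the other classes by 2.75 on the log2 scale (SE 0.31, edgeR adjusted p = 4.78e-06, where 23.1% of genes were called higher) and lower in muscle nuclei by a change of -1.96 (SE 0.42, edgeR adjusted p = 0.00216, where 12.9% were called lower). Of the adipose class as a whole, 5.61%, 11.1%, 8.60% and 8.96% of nuclei had a UMI, against 1.21% to 2.52% of muscle nuclei, whose median depth of 525 to 644 UMIs was the greater. Lgr4 in cuticle-gene nuclei was lower by -0.99 without passing the test (edgeR adjusted p = 0.0760), and passed it with the library as a block (adjusted p = 0.0103). The oenocyte class did not differ from the mean of the others (0.20, edgeR adjusted p = 0.688). Adipose nuclei showed no genotype difference in Lgr4 beyond the spread of the controls (log2 -0.15, SE 0.56, edgeR adjusted p = 0.972), and without oenots>EGFP replicate 2 the value was 0.97.

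In oenocyte nuclei Lgr4 was at 67.6 and 78.5 CPM in the control and 283 and 211 CPM in oenots>tsc1,tsc2, from counts of 46, 67, 197 and 80. Both oenots>tsc1,tsc2 libraries were above both controls. The mean rose from 73.0 ± 7.75 to 247 ± 50.8 CPM (SD, n = 2), a ratio of 3.38, and a log2 change of 1.67 (SE 0.34, edgeR adjusted p = 0.0472). So 2 of the 2 receptors tested were called higher in oenocytes of oenots>tsc1,tsc2 flies, where 1.34% of the 6495 genes tested were called higher. The list was chosen with earlier results of these data known, and its other receptors were not tested. This count is therefore no result about the list. The call is fragile for Lgr4. It was lost without any 1 of the 4 libraries (adjusted p = 0.0564 to 0.187), with library totals as the only scaling (0.0640), in 1 fit over all tissues (0.128) and with each nucleus counted at most once for a gene (0.186, with a log2 change of 1.22). The direction was higher in each of these settings.

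The share of oenocyte nuclei with a UMI of Lgr4 was 1.96%, 1.34%, 4.81% and 3.93%, and after thinning 1.58%, 1.05%, 3.78% and 3.79%. The share with 2 or more UMIs was 0.568%, 1.34%, 3.30% and 3.12%. None of the 23 positive nuclei of oenots>EGFP replicate 2 held a single UMI. Within the oenocyte clusters, the share of nuclei with a UMI was 2.08%, 1.44%, 5.26% and 5.56% in cluster 2, 2.13%, 1.96%, 4.69% and 3.92% in cluster 4, and 1.24%, 1.11%, 4.97% and 4.00% in cluster 7. Both oenots>tsc1,tsc2 libraries were above both controls in all 3. In cuticle-gene and muscle nuclei, which are not the class of Lgr4, the share was 1.21% to 3.59% in a library, so the shares in control oenocytes lie within this background and those in oenots>tsc1,tsc2 oenocytes above it. By the share with 2 or more UMIs, cuticle-gene nuclei of oenots>tsc1,tsc2 replicate 2, at 3.59% (9 of 251), were above the 3.12% of its oenocytes, so on that measure the oenocytes do not stand above the background. Summed adipose markers, which mark the class where Lgr4 was highest, were lower in oenots>tsc1,tsc2 oenocytes, as given above. The change of Lgr4 in oenocytes did not differ from that in muscle (1.20, edgeR adjusted p = 0.879), adipose (1.77, 0.606) or cuticle-gene nuclei (1.10, 0.884) by the test of the difference.

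Lgr4 also marked a small adipose cluster. Joint cluster 14, whose leading genes include disco, dsb and to, held 41, 71, 27 and 16 nuclei. Lgr4 was at 0, 1698, 1844 and 1414 CPM there, from 0, 75, 27 and 17 counts, in 0%, 26.8%, 25.9% and 37.5% of nuclei. The library without a count is again oenots>EGFP replicate 1. In muscle nuclei Lgr4 was at 19.6, 56.5, 62.1 and 31.8 CPM (log2 0.52, edgeR adjusted p = 0.989) and in cuticle-gene nuclei at 55.4, 86.3, 61.9 and 141 CPM (0.59, adjusted p = 0.998), with overlapping groups in both. One nucleus of oenots>tsc1,tsc2 replicate 2, in a cluster with tracheal markers, held 76 of the 371 Lgr4 UMIs of that library.

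The gene rk, on chromosome 2L from 13982743 to 14001248 (minus strand, with NimC2 on the opposite strand within its span), was counted mostly in a single small cluster. In the control it had 66 UMIs in replicate 1 and 5 in replicate 2. Deposited cluster 11 held 59 of those 66, at 1419 CPM over 79 nuclei, and no UMI over the 22 nuclei that replicate 2 has in this cluster. The cluster is led by Elo68alpha and bond, which encode fatty acid elongases, and by the homeobox genes inv and en, and rk itself ranked among its leading genes.

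The joint clustering, which did not use rk, placed the same signal in cluster 13. This cluster is led by CG7059, Elo68alpha, CG12268, bond, inv and en and held 80, 0, 116 and 33 nuclei. It had 60, 98 and 27 counts of rk in the 3 libraries that have nuclei there, in 45.0%, 44.0% and 39.4% of nuclei, against at most 0.32% of adipose nuclei in any library. The library with no nuclei in cluster 13, oenots>EGFP replicate 2, is the library with 5 UMIs of rk in all. Over whole libraries rk was at 20.3, 1.27, 32.0 and 24.8 CPM, so both controls lay below both oenots>tsc1,tsc2 libraries, and the genotypes were not tested because rk did not pass the filter. The elongase bond is also one of the 12 male tract markers, and the dissection removed these organs by hand. In a coarser clustering, the paper proposes that a cluster enriched in bond is likely part of the ejaculatory bulb.

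**Figure D5:**
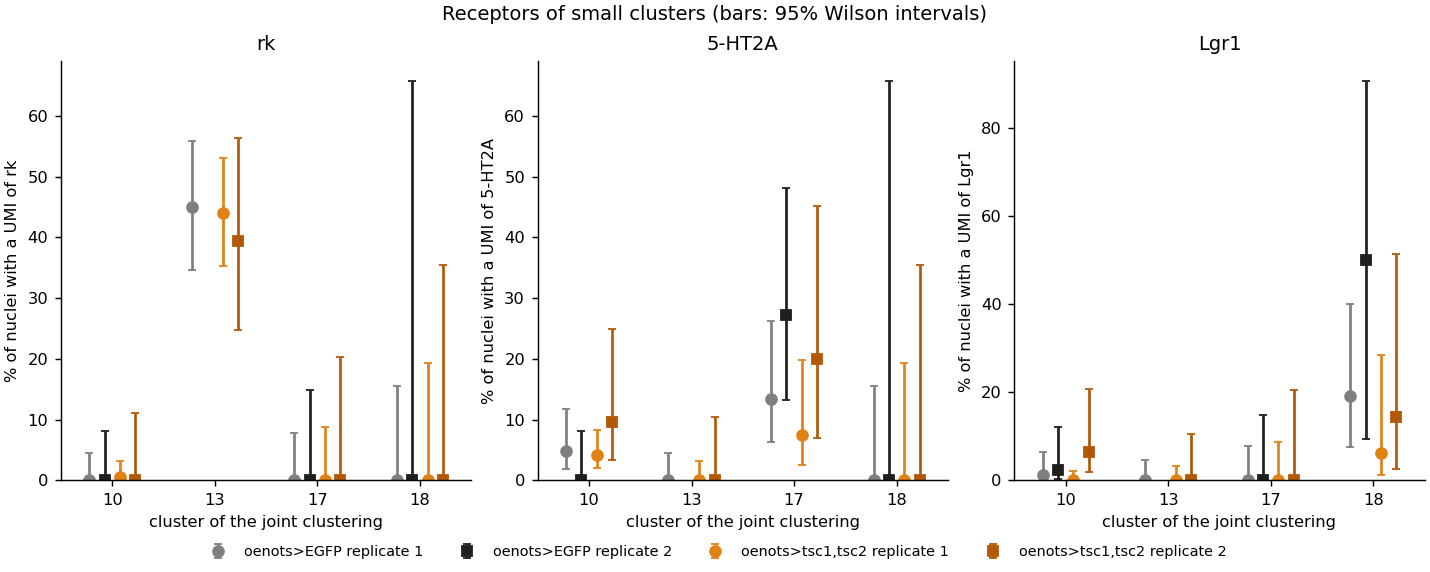
Percent of nuclei with at least 1 UMI of rk, 5-HT2A or Lgr1 in the small joint clusters 10, 13, 17 and 18, in each library, with 95% Wilson intervals. The share for rk in cluster 13 was 45.0%, 44.0% and 39.4% in the 3 libraries with nuclei there, and the shares for 5-HT2A in cluster 17 and Lgr1 in cluster 18 rest on few nuclei and have wide intervals.

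Lgr1, the family member most like the vertebrate glycoprotein hormone receptors (3R, 17725777 to 17733207, plus strand), had 16, 9, 6 and 8 UMIs in the 4 libraries. Deposited cluster 12, led by GstD11, Cpr62Ba and byn, a transcription factor gene of the hindgut, held 5 and 2 of the control counts, at 157 and 103 CPM. In the joint clustering, cluster 18, led by Cpr62Ba, CG9993 and byn, had 5, 2, 1 and 1 counts over 21, 2, 16 and 7 nuclei. Lgr1 was thus found in this cluster in every library, but in few nuclei. Lgr3 (3R, 25665809 to 25677214, plus strand, with CG4730 on the opposite strand within its span) had 2, 1, 2 and 0 UMIs. A count of 0 in the last library allows up to 2.07 CPM, which is above the level in each of the others.

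The serotonin receptor 5-HT2A (3R, 4612870 to 4633304, plus strand) had 27, 29, 32 and 14 UMIs and so the same library level, 7.39 to 9.66 CPM, in both genotypes. Counts of 5-HT2A were concentrated in a cell group not named here. Deposited cluster 10, with 31 nuclei in replicate 1 and 86 in replicate 2, held 12 and 10 of them, at 794 and 274 CPM, and the leading genes of this cluster are CG16826, lcs, CG34212 and 5-HT2A. Without the receptor among the clustered genes, joint cluster 17, led by CG16826, CG34212, lcs and whe, contained 13, 10, 11 and 10 counts. A UMI was found in 6 of 45, 6 of 22, 3 of 40 and 3 of 15 of its nuclei, against at most 0.155% of adipose nuclei in any library. The cluster with male tract markers, cluster 10 of the joint clustering, held a further 4, 0, 8 and 3 counts. In all 4 libraries, cluster 17 thus carried 5-HT2A, in numbers too small to compare genotypes within it. In a coarser clustering, the paper proposes remnant gut or Malpighian tubule tissue for a cluster enriched in whe.

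The receptors of the renal peptides were counted rarely. Lkr (3L, 5512421 to 5529341, minus strand) had 13, 4, 10 and 3 UMIs and at most 3 in any deposited cluster of a library, with the most in cluster 7, a cluster with midgut genes, at 3 and 2. In the joint clustering the male tract cluster 10 had 3, 3, 0 and 3 counts. CapaR (3L, 21558974 to 21562181, minus strand) had 10, 12, 10 and 1 UMIs. Deposited cluster 9, which carries markers of tubule principal cells, the cells in which CapaR is known to act, held 2 and 0 of them, and joint cluster 15 with the same markers held 2, 0, 3 and 0 over 52, 27, 47 and 14 nuclei. At these depths neither receptor could be assigned to a cell group, although both are known from the tubules.

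Other receptors and the proteins around them were compared in the same fits, from lists that were chosen with earlier results of these data known. Of 33 other peptide hormone receptors, 12 passed the filter. Among these 12, the test called 2 higher and 5 lower in oenocyte nuclei, 4 and 5 in adipose nuclei, 5 and 2 in muscle nuclei and 1 and 2 in cuticle-gene nuclei, with median log2 values of -1.27, -1.46, -0.02 and -0.85 beside -0.07, -0.01, -0.07 and -0.05 over all genes, of which 40.1%, 42.9%, 29.1% and 26.8% were called in either direction. CrzR, the corazonin receptor, was at 1191, 849, 286 and 354 CPM in oenocyte nuclei, higher there by 4.55 on the log2 scale (SE 0.27, edgeR adjusted p = 9.96e-09). Its control levels were above those of both oenots>tsc1,tsc2 libraries, but it was not called in the genotype contrast. Pdfr, the receptor of the pigment-dispersing factor, was higher in adipose nuclei, at 758, 548, 828 and 842 CPM (log2 3.84, SE 0.24, adjusted p = 2.41e-08). Proc-R, the proctolin receptor, was higher in muscle nuclei, at 271, 322, 153 and 218 CPM (log2 4.68, SE 0.32, adjusted p = 3.58e-08). A gene low in the other classes can pass the filter through its highest class alone. This was not checked for CrzR, Pdfr and Proc-R. AkhR, the receptor of the adipokinetic hormone that mobilizes fat, was higher in adipose nuclei by 4.04, but it is one of the markers that named this class and is no independent result. AkhR, AstA-R1 and CCKLR-17D3 were also among the clustered genes, and AkhR and CCKLR-17D3 are both counted among the genes called higher in adipose nuclei. In the genotype contrasts 5, 8, 7 and 4 genes of this list could be tested in oenocyte, adipose, muscle and cuticle-gene nuclei, and edgeR called 0 of them, with 3, 1, 1 and 1 at an unadjusted p under 0.05, while DESeq2 called 2 in oenocyte nuclei and 0 in the others.

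Of 16 other amine receptors, 3 passed the filter. Octalpha2R, the alpha2-adrenergic-like octopamine receptor, was at 48.9, 56.5, 31.0 and 59.1 CPM in muscle nuclei and at most 11.1 CPM in the other named classes (log2 3.51, SE 0.36, edgeR adjusted p = 2.83e-06). It was called in the same tissue as Octbeta2R, but at such levels elsewhere it passed the filter through muscle alone. The call in muscle is thus no independent result. The dopamine receptor genes Dop1R1 and Dop1R2 were higher in adipose nuclei by 1.94 and 2.28 (adjusted p = 4.02e-05 and 0.00306). Dop1R1 was also higher in oenocyte nuclei by 1.64, at 48.5, 66.8, 147 and 261 CPM, where the oenots>tsc1,tsc2 libraries lay above the controls without a call by edgeR in the genotype contrast. It was the 1 gene of this list tested in oenocytes, and DESeq2 called it. Over the 3 genes, 1 was called higher and 1 lower in oenocyte nuclei, 2 and 1 in adipose, 1 and 1 in muscle, and 0 and 1 in cuticle-gene nuclei, beside 40.1%, 42.9%, 29.1% and 26.8% of all genes called in either direction.

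Of 16 ligands and amine synthesis genes, 4 passed the filter, all of them in the making or storage of amines. Vmat, the vesicular amine transporter, Ddc, the dopa decarboxylase, ple, the tyrosine hydroxylase, and Hn, the phenylalanine hydroxylase, were all called higher in cuticle-gene nuclei, by 2.61, 2.35, 2.67 and 1.71 on the log2 scale, and all lower in oenocyte nuclei. In addition to neurons, the last 3 enzymes are known to feed the tanning of cuticle. Vmat in cuticle-gene nuclei was at 163, 187, 106 and 130 CPM (edgeR adjusted p = 4.01e-07). Of these 4, Vmat and ple were also called higher in muscle and lower in adipose nuclei. Hn and ple were among the clustered genes and so helped to form the classes. Of these 4, 2 could be tested between genotypes in oenocyte nuclei and 4 in each other class, and edgeR called 0, with 1 in adipose and 1 in muscle nuclei at an unadjusted p under 0.05, while DESeq2 called 1 in adipose nuclei.

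Of 31 genes of G protein, cyclic AMP and calcium signaling, 25 passed the filter, with 13 called higher and 5 lower in oenocyte nuclei, 12 and 3 in adipose, 5 and 12 in muscle and 1 and 15 in cuticle-gene nuclei, beside 40.1%, 42.9%, 29.1% and 26.8% of all genes called in either direction. Of this list, Gbeta13F, Ggamma1, Ac78C, Pka-R1, krz and Gprk1 were among the clustered genes and so helped to form the classes. Their calls are part of these counts and are no independent results. Pka-C3, a catalytic subunit of protein kinase A, was at 1012, 1001, 661 and 1222 CPM in muscle nuclei (log2 4.12, SE 0.24, edgeR adjusted p = 9.02e-09). Galphao, a G protein subunit, dnc, the cyclic AMP phosphodiesterase, and Ac13E, an adenylyl cyclase, were higher in adipose nuclei by 2.92, 2.56 and 2.39. A single gene of these lists was called between genotypes by edgeR and is named here after its values were seen. Pde8, a phosphodiesterase, was at 367, 282, 109 and 79.2 CPM in oenocyte nuclei, lower in both oenots>tsc1,tsc2 libraries by a log2 change of -1.87 (SE 0.35, edgeR adjusted p = 0.0398). It was 1 of 25 genes of the list tested in oenocytes, where 2.96% of all genes were called, and DESeq2 called 4 of the list there.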

How the data were processed

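UMI counts per gene and nucleus were analysed as deposited. The authors aligned reads with Cell Ranger (3.1.0 in the submitters' processing notes) to a reference with introns, removed background RNA with a fixed contamination share, and clustered control nuclei with Seurat (3.1.2); the deposited counts are corrected whole numbers, and UMIs of long genes include intronic reads. Every deposited nucleus was kept, no doublet caller was run, and doublets were not removed here. Groups and libraries were taken from the labels, and the 16 deposited control clusters from the deposited metadata. The 10 receptors and all gene lists were chosen with earlier results of these data known.

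Nuclei of all libraries were clustered with leidenalg 0.10.2 on variable genes, the 10 receptors left out, and classes were named from fixed markers. Counts were summed per class and library and tested in R 4.3.3 with edgeR 4.0.16 (TMM scaling, filterByExpr, quasi-likelihood test, Benjamini-Hochberg adjustment over all genes tested, threshold 0.05), and with DESeq2 1.42.0 as an alternative. The scripts were tested on simulated counts. Tissue contrasts used 16 sums in 1 fit, and each genotype contrast used 4 sums of 1 class. Named genes were the 10 receptors, the 3 genes most like each receptor with at least 100 control UMIs, and up to 4 genes of each list with the smallest adjusted p. Likeness used log2(CPM + 10).

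Classes of a library come from the same flies and deviated together (correlations of 0.308 to 0.626 over 6818 genes), so the fit with the library as a block is given where it changes a call. Alternatives were other scalings and filters, tissues from the deposited clusters, 1 fit over all tissues, the blocks, and leaving out each library. Counting each nucleus once per gene, and setting nuclei with 1 UMI of a gene to 0, were added after seeing the data. Gene positions came from the Ensembl annotation of the Release 6 assembly, which all 10 genes matched by symbol.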

Additional observations from a re-analysis of the deposited data

Results flagged for a closer look

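The genotype change of Octbeta2R was larger in oenocyte than in muscle nuclei by 3.32 on the log2 scale (edgeR adjusted p = 0.0499). It stood out because the difference between genotypes was not the same in these tissues by the test of the difference. The change within oenocyte nuclei was called (log2 2.99, edgeR adjusted p = 0.0150). The lower level in muscle nuclei of oenots>tsc1,tsc2 flies did not pass the test (log2 -0.35, edgeR adjusted p = 0.998). The adjusted p over the other settings ranged from 0.000151 to 1.0, and 7 of 16 of them lost the call.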

How the results depend on the processing

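Of 343 values of single receptors under other settings, 292 kept their direction and their side of the threshold, 19 lost a call, 16 gained one and 16 turned in sign. The rise of Octbeta2R in oenocytes, its excess in muscle and the excess of Lgr4 in adipose nuclei were called in every setting in which the gene was tested. The number of receptors called higher in oenocytes of oenots>tsc1,tsc2 flies was 1 instead of 2 in 1 fit over all tissues, with library totals alone and with each nucleus counted once, and 1 without any 1 library (lowest 1, highest 1), Lgr4 being the one lost. Against muscle, the difference of Octbeta2R gave 0 calls instead of 1 with the DESeq2 size factors, with cuticle-gene nuclei counted with muscle, with nuclei of 1 UMI set to 0 and without any 1 library (0 to 0). Against adipose nuclei there was 1 call instead of 0 with DESeq2, at least 10 counts in every library, each nucleus counted once, no filter, the replicate block (here the library) and tissues from the deposited clusters, and 0 to 1 without 1 library (1 without oenots>tsc1,tsc2 replicate 2). Against cuticle-gene nuclei there was 1 call with DESeq2, at least 10 counts, no filter, the block and the deposited clusters. Requiring at least 10 counts left Lgr4 untested, so the adipose count of receptors called higher and the muscle count of receptors called lower fell to 0. In cuticle-gene nuclei 2 receptors instead of 1 were called lower with each nucleus counted once, without a filter and with the block, 0 with library totals alone, nuclei of 1 UMI set to 0 and the deposited clusters, and 0 to 2 without 1 library (0 without either oenots>EGFP library, 2 without oenots>tsc1,tsc2 replicate 2). Apart from Lgr4 under the minimum of 10 counts, the cause of these changes was not tested.

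The values that turned in sign were all below the threshold. For Lgr4 the adipose genotype change was 0.11 with the replicate block and -0.78 to 0.97 without 1 library (0.97 without oenots>EGFP replicate 2), the cuticle-gene change -0.27 (without oenots>tsc1,tsc2 replicate 2) to 1.28, and the muscle change -0.66 with the deposited clusters and -0.063 (without oenots>EGFP replicate 1) to 1.41 without 1 library, also negative without oenots>tsc1,tsc2 replicate 1. Its oenocyte minus cuticle-gene difference was -0.11 with the deposited clusters, and its oenocyte tissue contrast -0.35 with cuticle-gene nuclei counted with muscle, -0.043 with each nucleus counted once and -0.064 with the deposited clusters. For Octbeta2R the adipose change was -0.095 (without oenots>tsc1,tsc2 replicate 2) to 0.95 without 1 library, the cuticle-gene change -0.12 with the deposited clusters and -0.26 (without oenots>tsc1,tsc2 replicate 2) to 0.47, and the oenocyte tissue contrast -0.13 with the deposited clusters and -0.21 (without oenots>tsc1,tsc2 replicate 1) to 0.52, also negative without oenots>EGFP replicate 1. Thinning to 250 UMIs took the mean share of cluster 5 nuclei with Octbeta2R from 21.1% to 10.6% and of cluster 12 nuclei with Lgr1 from 5.32% to 1.32%.

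Counts of called genes moved more. In oenocytes 192 genes were called and 78 to 757 over all settings (421 of 2843 with DESeq2), in muscle 11 and 0 to 143, in adipose 0 and 0 to 231, and in cuticle-gene nuclei 1 and 0 to 252. The differences from adipose, cuticle-gene and muscle nuclei gave 40, 4 and 10 genes and 0 to 211, 0 to 93 and 0 to 84. The tissue contrasts gave 2736 (670 to 3315) for oenocyte, 2924 (774 to 3382) for adipose, 1985 (695 to 3000) for muscle and 1830 (629 to 2251) for cuticle-gene nuclei. The 757 came from a block on the replicate number across genotypes, which is only a number in accession order here, although deviations of same-numbered libraries correlated at 0.144 to 0.242. Library totals alone moved the median log2 change of all genes in oenocytes from 0.02 to 0.12. Depth limits all statements on the 8 receptors that did not pass the filter, and with 2 libraries a genotype, 1 library can decide a call near the threshold.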
